A study of Mus musculus with 21 samples.

Results

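The 4 to 8 h interval of CX-5461 treatment was described from 6 of the 21 RNA-seq libraries of the study, 3 taken after 4 h and 3 after 8 h of 1 µM CX-5461. The cells were E14 mouse embryonic stem cells of the 129 strain, grown in serum with leukaemia inhibitory factor (LIF), which keeps such cells undifferentiated. The other libraries were 3 each of untreated E14 cells (0 h), of cells after 2 h of 1 µM CX-5461, and of cells after 2, 4 and 8 h of 1 µM BMH-21. All 7 groups shared the same line, medium and poly(A) library kit, and the series held no untreated cells taken at 4 or 8 h, so time in fresh medium and time in inhibitor cannot be told apart. The comparison covered 14666 of the 20900 genes in the deposited table, namely those with a log2 value above 0 in at least 3 libraries.

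CX-5461 and BMH-21 are small molecules used to stop RNA polymerase I, the enzyme that copies ribosomal DNA into the precursor of the large ribosomal RNAs inside the nucleolus. CX-5461 keeps the polymerase from being loaded at ribosomal DNA promoters and is also known to stabilise G-quadruplex DNA and to trap topoisomerase II. BMH-21 inserts into GC-rich DNA and leads to loss of the largest RNA polymerase I subunit. When ribosome assembly stops, free ribosomal proteins bind Mdm2, the ligase that marks p53 for degradation, so that p53 and its target genes rise. Stem cells of this kind rest on a network of transcription factors led by Oct4 (encoded by Pou5f1), Sox2 and Nanog, and a small share of them pass at any time through a state that resembles the 2-cell embryo, marked by Zscan4 genes.

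Libraries held 46604397 to 62812641 reads over the table, and 46604397 to 56161917 in the 6 libraries of the interval, so counting error was small for all but the lowest genes. Nothing in the labels says whether replicates were separate cultures, so p-values measure the spread between these libraries, which may be technical. No pair of replicates was alike within sampling noise. In the deposited values each library had been scaled by a factor of its own, which was 0.979 to 1.174 in the 4 h libraries and 0.888 to 0.943 in the 8 h libraries, whereas median-ratio factors computed from the recovered reads were 1.001 to 1.007 and 1.080 to 1.103. The mean of the library medians therefore moved by 0.37 (log2, 8 h minus 4 h) as deposited, and centring on library medians took this common shift away. All levels and differences below are therefore centred log2 values unless marked otherwise, on which 0 is the median gene of a library. As deposited, 58.8% of all genes tested were called higher and 4.85% lower at 8 h against 4 h of CX-5461. These shares are the background for the deposited counts of that interval below. Differences of 4 and 8 h of CX-5461 from untreated cells are given below on the centred scale only, and they too depended on the scale. At 8 h against untreated cells 4301 genes were higher and 6550 lower after centring. The counts were 5154 and 2091 as deposited, and 5340 and 4943 with median-ratio factors. How far a gene came back to its untreated level is therefore stated for the centred scale.

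From 4 to 8 h of CX-5461 the transcriptome moved in both directions. With limma, 8477 of 14666 genes differed at a Benjamini-Hochberg adjusted p under 0.05 (57.8% of those tested), of which 3790 were higher (25.8%) and 4687 lower (32.0%) at 8 h. The shares of 25.8% and 32.0% are the background for the centred list counts of the interval below. The differences were small for most genes. At least 2-fold changes were found for 307 genes that rose and 326 that fell, and the interquartile range of all differences was -0.23 to 0.20. As deposited, 8626 genes were called higher and 712 lower. Of the called genes 44.7% were higher after centring, 46.5% with median-ratio factors (26.7% and 30.7% of genes tested called higher and lower) and 92.4% as deposited. The 3 values at 4 h and the 3 at 8 h did not overlap for 66.6% of all genes, 29.7% with 8 h higher and 36.9% with 8 h lower.

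**Figure D1:**
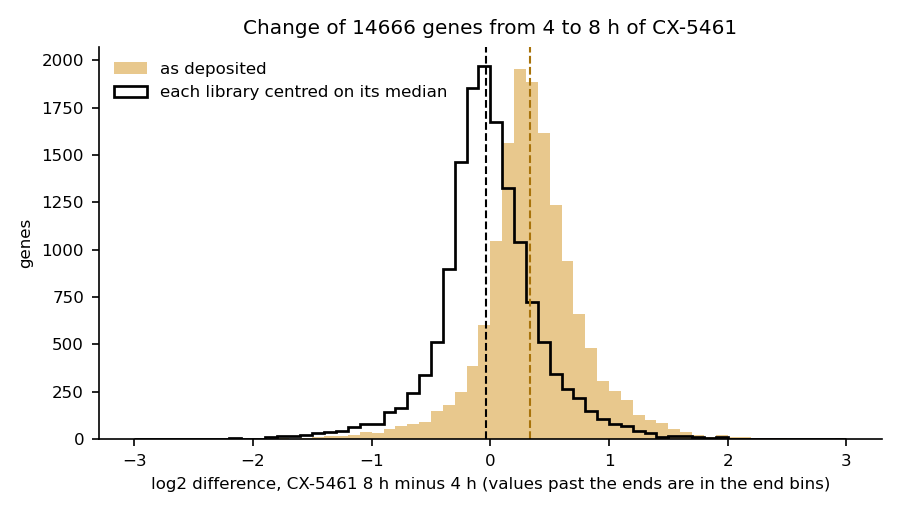
Number of genes (y axis) by log2 difference between CX-5461 8 h and 4 h (x axis), as deposited (filled) and with each library centred on its median (outline), over 14666 genes; dashed lines are the medians. The deposited distribution lies to the right, with its median at 0.34 against -0.04 after centring.

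The interval was described beforehand as a recovery, with Nanog and Sox2 as its markers, and these genes come first here. Nanog, a homeobox factor that stabilises self-renewal (chr6:122707489-122714633, plus strand, here and below from GENCODE M21 on the mm10 build), had centred log2 values of 4.55, 4.58 and 4.52 in untreated cells. It stood at 3.51, 3.51 and 3.42 after 4 h and at 4.09, 4.04 and 4.10 after 8 h. All 3 libraries at 8 h were above all 3 at 4 h and below all 3 untreated ones. The rise from 4 to 8 h was 0.60 ± 0.05 (log2, SE, n = 3 and 3; 1.52-fold; adjusted p = 1.2e-09), and the 8 h level differed from untreated cells by -0.48 (adjusted p = 1.9e-08).

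Sox2, the factor that pairs with Oct4 on DNA (chr3:34650405-34652461, plus strand), stood at 4.92, 4.83 and 4.92 in untreated cells, at 4.19, 4.32 and 4.24 after 4 h and at 4.63, 4.54 and 4.48 after 8 h. The groups again did not overlap. The rise was 0.30 ± 0.05 (1.23-fold, adjusted p = 9.2e-06), to a level that differed from untreated cells by -0.34. Both genes thus went part of the way back towards untreated cells on the centred scale. As they were given with the word recovery, they are no independent check of it.

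Upstream of the Nanog start lies a sequence in which Oct4 and Sox2 sites stand side by side. The 250 bases before the start (RefSeq, GRCm38.p6, chr6:122707239-122707488, plus strand) are shown because Nanog, Sox2 and Pou5f1, the genes of that circuit, did not all move the same way. Capitals mark the composite site, the octamer-type motif TTTGCAT and the SOX motif ACAATG with 1 base between them. Both strands were searched, and the only match was on the plus strand, 75 to 62 bases before the start.
Nanog: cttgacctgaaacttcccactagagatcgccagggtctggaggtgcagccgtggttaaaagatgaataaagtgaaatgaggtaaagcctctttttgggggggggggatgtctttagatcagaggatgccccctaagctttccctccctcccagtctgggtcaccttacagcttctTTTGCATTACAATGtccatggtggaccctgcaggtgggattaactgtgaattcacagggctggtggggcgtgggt
The pair at this spacing occurs in 2 of 32851 mouse promoter windows in the RefSeq table (0.00609%). This count, like that for the p53 site below, is of windows searched in full, and a gene with several starts can have several windows. A match is a description of the sequence and not evidence of binding in these cells.

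Core pluripotency genes split. Nanog, Sox2 and Sall4, a zinc-finger partner of Oct4, rose, and Pou5f1 fell, so that 3 of 4 rose against 25.8% of all genes. Sall4 was 3.24, 3.29 and 3.19 at 4 h and 3.82, 3.71 and 3.77 at 8 h, a rise of 0.53 ± 0.05 (adjusted p = 1.8e-08). Pou5f1 was 6.21, 6.23 and 6.21 in untreated cells, 6.02, 5.95 and 5.95 at 4 h and 5.64, 5.66 and 5.65 at 8 h. It was lower at 4 h than untreated and lower again at 8 h (difference from 4 h -0.32 ± 0.05, adjusted p = 3.3e-06). On the deposited scale the Pou5f1 difference was 0.05 (adjusted p = 0.65), whereas Nanog rose by 0.97 and Sox2 by 0.67.

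Among 15 naive pluripotency genes, those that define the ground state of the early epiblast, 9 rose and 5 fell, with a median of 0.29 against -0.04 over all genes. Prdm14, a repressor of FGF signalling and DNA methylation genes (chr1:13113457-13127163, minus strand), moved furthest. It was 0.22, 0.24 and 0.29 untreated, -1.99, -1.99 and -2.00 at 4 h, and -0.05, -0.01 and -0.06 at 8 h. That is a 3.86-fold rise (log2 1.95 ± 0.10, adjusted p = 3.4e-13) to a level that differed from untreated cells by -0.29 (adjusted p = 0.014). Nr5a2, an orphan nuclear receptor that can drive Pou5f1, rose by 1.00 ± 0.06 from 0.05, 0.02 and 0.06 to 1.05, 1.08 and 0.99. Zfp42, the marker also called Rex1, rose by 0.75, and the self-renewal factors Klf2, Tbx3 and Esrrb by 0.54, 0.41 and 0.29.

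Other genes of the same list went down further. Tfcp2l1, a LIF effector, fell by 0.59 (2.10, 2.21 and 2.24 at 4 h; 1.59, 1.56 and 1.63 at 8 h), Tcl1, a cofactor of AKT, by 0.62, and Dppa3, a maternal factor that protects DNA methylation, by 0.43. Nr0b1, which binds and restrains Oct4, fell by 0.25, to a level that differed from untreated cells by -1.44. At 8 h none of the 15 was above untreated cells and 14 were below, beside 44.7% of all genes called lower and 74.0% called either way in that comparison. At 4 h 14 were below as well, beside 45.7% of all genes called lower and 74.2% either way. As deposited, 10 rose and 1 fell in the interval. There the differences of Tfcp2l1 (-0.22), Dppa3 (-0.05) and Nr0b1 (0.13) did not pass the test.

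Genes of the formative and primed state, which come on as naive cells prepare for lineage choice, rose almost throughout. Of 12 tested 11 rose and 1 fell, with a median of 0.76, and the counts were 11 and 1 under the deposited scale, median-ratio factors and quantile normalization too. They rose from a lowered level. At 4 h 11 of the 12 were below untreated cells and 0 above (median difference -1.26). At 8 h 10 were still below and 1 above (median -0.55), beside 45.7% and 44.7% of all genes called lower at 4 and 8 h. Lef1, a WNT-responsive DNA-binding partner of beta-catenin, went from -2.02, -2.07 and -2.03 to -0.67, -0.92 and -0.58 (2.49-fold). Foxd3 went from -0.25, -0.15 and -0.42 to 1.00, 0.73 and 0.87 (2.20-fold), and Fgf5, the classic primed marker, from -4.81, -4.12 and -4.76 to -3.22, -3.07 and -3.68 (2.36-fold, on 38 to 58 and 85 to 151 reads). Zic2 rose by 0.97, Sox3 by 0.85 and Otx2 by 0.71. These 3 transcription factors were still below untreated cells at 8 h (differences -0.80, -0.53 and -0.42). Dnmt3b, the de novo DNA methyltransferase of this stage, was the exception and fell from 4.12, 4.13 and 4.15 to 3.48, 3.47 and 3.44.

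Of 7 neural genes tested 4 rose and 2 fell (5 and 2 as deposited). Pax6, a neural and eye factor, rose 3.81-fold, from -3.84, -3.56 and -3.97 to -1.99, -1.80 and -1.79, and had been -1.18, -1.06 and -1.31 in untreated cells. Hes3, a Notch-related repressor, fell by 1.53 and Neurod1 by 0.67. The other 5 neural genes of the list did not pass the filter on low values.

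**Figure D2:**
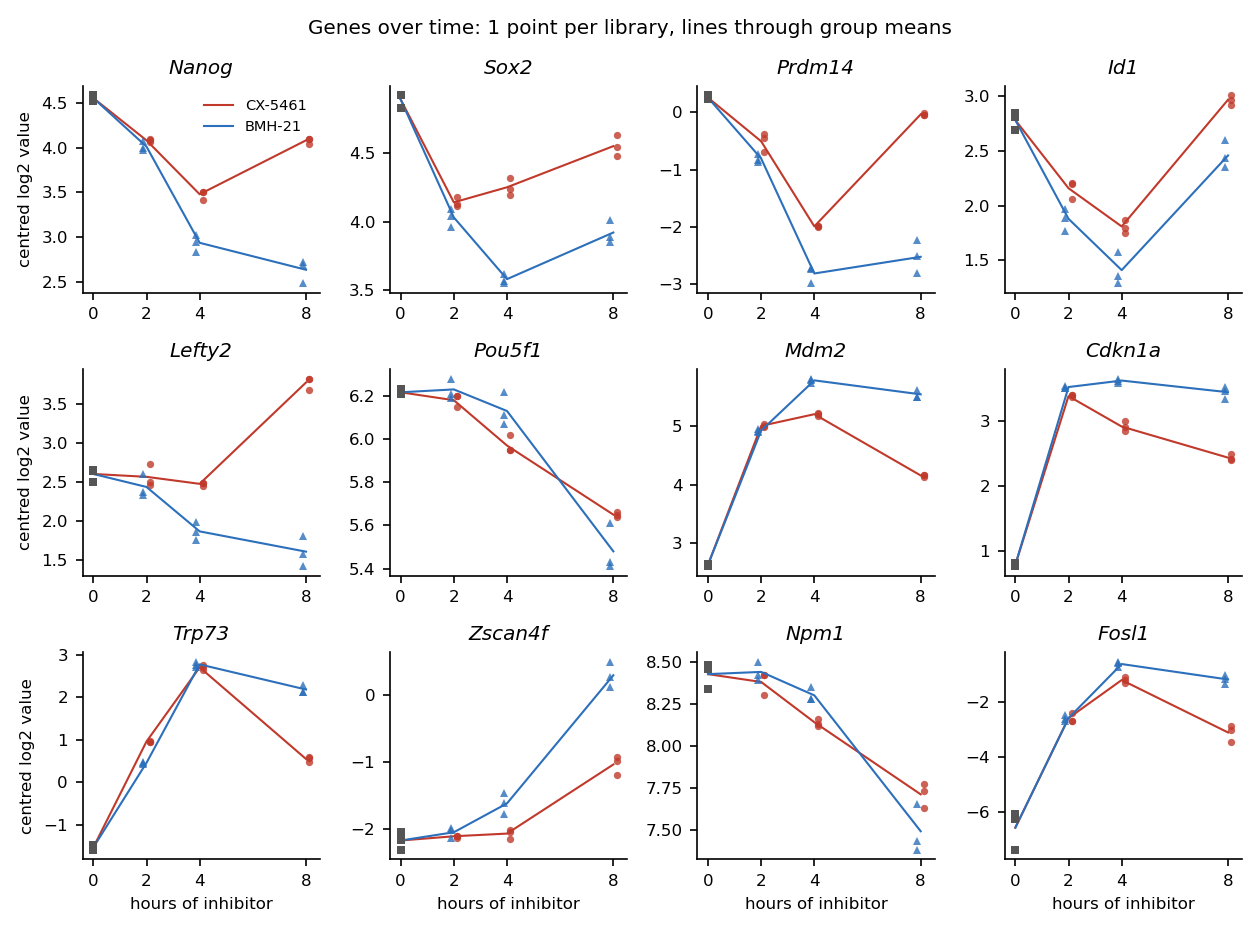
Centred log2 value (y axis) of 12 genes by hours of inhibitor (x axis), 1 point per library, squares for untreated cells, circles for CX-5461 and triangles for BMH-21, with lines through group means of 3. Nanog, Sox2, Prdm14 and Id1 rose from 4 to 8 h of CX-5461, whereas Pou5f1 and Npm1 kept falling and Mdm2, Cdkn1a, Trp73 and Fosl1 came down from a high 4 h level; as deposited the Pou5f1, Npm1 and Cdkn1a differences did not pass the test.

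FGF signalling drives these cells out of the naive state through the ERK kinase. Of 10 FGF ligands and receptors tested 6 rose and 2 fell (median 0.40; 7 and 1 as deposited). Among the ligands Fgf15 rose from -2.03, -1.69 and -2.06 to -0.76, -0.53 and -0.82, where its 8 h level differed from untreated cells by -0.04 (adjusted p = 0.78). Fgf4, the main ligand the cells make for themselves, was 2.79, 2.78 and 2.74 at 4 h and 2.84, 2.73 and 2.80 at 8 h, and did not pass the test (adjusted p = 0.57), though as deposited it rose by 0.40 (adjusted p = 0.00083) and with quantile normalization by 0.14 (adjusted p = 0.0011). The receptors went apart, with differences of 0.84 for Fgfr2, -0.29 for Fgfr1 and -0.76 for Fgfr4. Fgfr4 had stood 2.75 above untreated cells at 4 h. The Fgfr1 difference was 0.09 as deposited (adjusted p = 0.47).

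Among 13 genes that report ERK activity 9 rose and 3 fell (median 0.31). The feedback inhibitor Spry4 went from 2.20, 2.35 and 2.27 to 3.01, 2.98 and 3.11, which covered the range of untreated cells (3.05, 3.01 and 3.10). Dusp4, a phosphatase that removes ERK activation, rose by 0.92, and Etv5, an ETS factor downstream of ERK, by 0.71 from 3.47, 3.49 and 3.46 to 4.17, 4.19 and 4.20. Egr1, an immediate early target of the same kinase, went the other way (difference -0.47, adjusted p = 1.4e-07), from a 4 h level 0.40 above untreated cells. Dusp6 and Etv4 also fell (differences -0.21 and -0.27). As deposited 10 of the 13 rose and 0 fell, and the differences of Egr1 (-0.10), Dusp6 (0.17) and Etv4 (0.10) did not pass the test.

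BMP signalling acts with LIF through the Id genes. Bmp4 and the Id target genes rose, and other members fell or did not pass the test. Bmp4 rose from -1.94, -1.79 and -1.98 to -0.26, -0.32 and -0.29 (3.06-fold), and its 8 h level differed from untreated cells by -1.05. The Id genes encode partners that block differentiation factors. Id1 went from 1.87, 1.80 and 1.75 to 3.01, 2.97 and 2.92 (2.24-fold), above the 2.85, 2.81 and 2.69 of untreated cells. Id3 rose 2.08-fold, Id4 2.84-fold and Id2 by 0.21 (log2). The signal transducers Smad1 and Smad5, the ligand Bmp7 and the receptor Bmpr2 fell (differences -0.46, -0.57, -0.38 and -0.31). In all 5 members rose, 4 fell and 4 did not pass among 13, not far from the 25.8% and 32.0% of all genes called higher and lower. As deposited 9 rose and 0 fell, and the differences of Smad1 (-0.08), Smad5 (-0.20), Bmp7 (-0.01) and Bmpr2 (0.06) did not pass the test, so their falls hold on the centred scale and not as deposited.

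In the Nodal pathway, a TGF-beta branch that patterns the embryo, 6 of 12 genes rose and 4 fell (8 and 1 as deposited). Lefty1 and Lefty2 encode secreted inhibitors of Nodal. Lefty2 was 2.66, 2.51 and 2.65 untreated, 2.49, 2.49 and 2.45 at 4 h and 3.82, 3.69 and 3.83 at 8 h (2.47-fold from 4 h), so that it passed well above its untreated level. Lefty1 rose 2.09-fold from 2.69, 2.66 and 2.63 to 3.77, 3.64 and 3.76 and ended 2.04 above untreated cells. The coreceptor Tdgf1 (Cripto) rose by 0.85. Nodal itself fell by 0.46, and Smad3, which carries the signal to the nucleus, by 1.40 (1.04, 1.05 and 1.07 at 4 h; -0.42, -0.22 and -0.39 at 8 h). As deposited the Nodal difference was -0.09 (adjusted p = 0.45) and that of Smad3 -1.02.

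Of 13 WNT pathway genes 4 were higher, 3 lower and 6 not past the test after centring, not far from the 25.8% and 32.0% of all genes called higher and lower. As deposited 9 were higher and 0 lower. Sp5, a direct WNT target, rose 3.79-fold on 64 to 86 reads at 4 h and 284 to 315 at 8 h. Axin2, the negative-feedback scaffold, rose from -1.20, -0.99 and -0.96 to 0.06, -0.07 and -0.09, and Ccnd1 (cyclin D1) by 0.55. The membrane ligase Rnf43, which lowers WNT receptors, fell by 0.64, a difference that was -0.27 as deposited (adjusted p = 0.34).

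p53 target genes moved downwards from a raised level. Of 25 tested 21 fell and 2 rose, with a median of -0.51, beside 32.0% of all genes lower. At 4 h 22 of them had been above untreated cells and 1 below, and at 8 h 21 were above and 2 below (beside 28.5% and 29.3% of all genes higher), so that the fall left most of them raised. Their median difference from untreated cells was 1.92 at 4 h and 1.11 at 8 h. As deposited 12 fell and 4 rose from 4 to 8 h (median -0.14).

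Mdm2, the inhibitor of p53, was 2.65, 2.64 and 2.60 in untreated cells, 5.23, 5.22 and 5.18 at 4 h and 4.14, 4.17 and 4.17 at 8 h. It dropped 2.07-fold in the interval (log2 -1.05 ± 0.03, adjusted p = 2.8e-16; -0.68 as deposited). Cdkn1a, which encodes the cell-cycle inhibitor p21 (chr17:29090976-29100727, plus strand), went from 3.00, 2.85 and 2.91 to 2.42, 2.41 and 2.49, against 0.76, 0.82 and 0.78 untreated. Its difference was -0.48 ± 0.04 (adjusted p = 1.1e-09), and -0.11 as deposited (adjusted p = 0.35). The death receptor Fas fell 2.36-fold on 192 to 565 reads, and Gdf15 and Plk2 fell by 0.89 and 0.82. Ccng1, a regulator of Mdm2, fell by 0.68, and the antiproliferative Btg2 by 0.44, a difference of -0.07 as deposited (adjusted p = 0.57). Perp, a desmosomal apoptosis effector, and the kinase Plk3 rose by 0.34 and 0.40. The death effector Bax (-0.11, adjusted p = 0.12) and Rrm2b (-0.12, adjusted p = 0.28) did not pass the test. As deposited these differences were 0.26 (adjusted p = 0.02) and 0.25 (adjusted p = 0.079).

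The p53 site in front of Cdkn1a is printed because this gene is the textbook p53 target and its centred level rose and then fell with the other targets. The 250 bases lie before the more upstream of the starts in the RefSeq table (GRCm38.p6, chr17:29090729-29090978, plus strand). Capitals mark the only match to a p53 site core, the motifs CATGTC and GACATG with 2 bases between them, which reads the same on both strands, 48 to 35 bases before that start.
Cdkn1a: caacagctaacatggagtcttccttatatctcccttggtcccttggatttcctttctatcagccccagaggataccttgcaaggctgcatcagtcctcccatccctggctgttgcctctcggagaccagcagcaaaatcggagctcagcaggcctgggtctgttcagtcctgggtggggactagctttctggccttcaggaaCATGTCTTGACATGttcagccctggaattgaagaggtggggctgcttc
That core is found in 4 of 32851 promoter windows (0.0122%), and among the 18 p53 targets of the list with a window only Cdkn1a had it, which says nothing of sites outside these windows or of looser matches.

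Genes of the 2-cell-like state rose late. Of 16 tested 15 rose, 0 fell and the median was 1.03, with the same counts as deposited, with median-ratio factors and with quantile normalization. At 4 h 3 of the 16 had been above untreated cells, and 13 had not passed that test, and 15 were above at 8 h, beside 28.5% and 29.3% of all genes called higher. Zscan4f, from a family that acts at telomeres, was -2.16, -2.31 and -2.05 untreated, -2.01, -2.05 and -2.15 at 4 h and -1.20, -0.93 and -0.99 at 8 h (2.04-fold from 4 h). Tcstv1 went from -4.40, -4.23 and -4.40 to -2.79, -2.59 and -2.68 (3.15-fold, on 49 to 56 and 170 to 212 reads). Tdpoz3 rose 6.29-fold from 5 to 11 reads to 46 to 67.

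Dux, the transcription factor that switches this programme on, behaved otherwise. It was -6.97, -6.48 and -8.10 untreated, -3.34, -3.78 and -3.30 at 4 h and -3.67, -3.58 and -3.58 at 8 h, so it was already 3.71 above untreated cells at 4 h and did not pass the test afterwards (-0.14, adjusted p = 0.73; 0.24 as deposited, adjusted p = 0.43). The untreated Dux values rest on few reads, near the floor of the counts, so the size of its rise by 4 h is uncertain. Zscan4, Usp17l, Tcstv, Tdpoz and Dux genes are near-identical copies, and reads may have been split among them or lost, so values of single members are uncertain. In bulk RNA a larger share of cells in this state and more RNA per such cell cannot be told apart, and the same holds for the other cell-state genes here. Zfp352 and Dub1 were not tested.

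Genes of the nucleolus and of ribosome assembly kept going down on the centred scale. Of 27 tested 19 fell and 2 rose (median -0.30), whereas 11 rose and 0 fell as deposited and 6 rose and 13 fell with quantile normalization. Npm1, the most abundant nucleolar chaperone, was 8.46, 8.48 and 8.34 untreated, 8.13, 8.16 and 8.12 at 4 h and 7.73, 7.77 and 7.63 at 8 h (difference -0.42 ± 0.06, adjusted p = 2.2e-06). Nucleolin (Ncl), which binds pre-ribosomal RNA, fell by 0.50, Bop1, a factor of the large subunit, by 0.49 and Utp20, of the small-subunit processome, by 0.56. As deposited these 4 differences were -0.05, -0.13, -0.12 and -0.19, none past the test. These genes lay below untreated cells at both times, with 22 of 27 lower at 4 h and 26 at 8 h, beside 45.7% and 44.7% of all genes called lower, with no return in the interval on the centred scale.

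The RNA polymerase I genes themselves moved little. Of 15 tested 7 fell, 1 rose and 7 did not pass, with a median of -0.06, beside -0.04 over all genes, and as deposited 8 rose and 0 fell. Polr1a, the largest subunit, went from 3.78, 3.79 and 3.84 to 3.45, 3.58 and 3.45, and Rrn3, the factor that makes the polymerase competent to start, fell by 0.27. As deposited these differences were 0.06 and 0.10, neither past the test. Ubtf, which coats active ribosomal DNA, was 3.72, 3.72 and 3.70 at 4 h and 3.71, 3.70 and 3.75 at 8 h (adjusted p = 0.90), but was called higher by 0.38 as deposited (adjusted p = 0.00083) and by 0.18 with quantile normalization (adjusted p = 0.0036). Cytosolic ribosomal proteins gave 40 lower, 0 higher and 34 not past the test among 74, with a median of -0.15 and a largest fall of 0.30 in Rpl15, but 42 higher and 0 lower as deposited, and 16 higher and 1 lower with quantile normalization. No direction can be given for them that holds on every scale, and many have processed pseudogenes that can share their reads. On the centred scale, leaving out replicate 1 of 4 h lowered the count of falls to 21, and leaving out replicate 3 of 8 h to 22.

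Immediate early genes are the transient response to stress and growth signals. After centring 6 of 17 were higher and 7 lower, not far from the 25.8% and 32.0% of all genes, whereas 9 were higher and 2 lower as deposited. Fosl1, an AP-1 subunit, was -7.35, -6.25 and -6.05 untreated, -1.10, -1.30 and -1.20 at 4 h and -3.01, -2.85 and -3.44 at 8 h, a 3.74-fold fall. Atf3, a stress-induced repressor, fell by 0.93 and Fos by 0.61 (-0.24 as deposited, adjusted p = 0.072). Other AP-1 subunits rose: Fosl2 2.93-fold, from -2.35, -2.44 and -2.44 to -1.01, -0.84 and -0.72, and Jund 1.92-fold.

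Of 11 genes of the MYC network 7 rose and 2 fell (median 0.28; 10 and 0 as deposited). The antagonist Mxd4 rose by 0.88 and Mycn by 0.38, Mxd1 fell by 0.51 and Myc by 0.12. As deposited Mxd1 did not pass the test (-0.14), and Myc was called higher (0.25, adjusted p = 0.037), so no direction holds for Myc. The Myc call after centring was also lost without replicate 1 of 4 h (-0.07, adjusted p = 0.15) or replicate 3 of 8 h (-0.09, adjusted p = 0.099). Elongation genes around P-TEFb, the kinase that frees paused RNA polymerase II, gave 6 higher and 7 lower of 20, near the 25.8% and 32.0% of all genes, and 14 higher and 0 lower as deposited. Its inhibitors Hexim2 and Hexim1 rose by 0.74 and 0.31, and the elongation factor Ell and the cyclin Ccnt1 fell by 0.57 and 0.39 (-0.20 and -0.01 as deposited, neither past the test).

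Of 18 replication genes 10 fell and 4 rose (median -0.15; as deposited 0 fell and 9 rose). Mcm6, a subunit of the replicative helicase, went from 4.30, 4.30 and 4.29 to 3.87, 3.90 and 3.87, a difference of -0.42 (-0.04 as deposited), while Ccne1 (cyclin E1) rose by 0.51 from 3.63, 3.59 and 3.63 to 4.14, 4.15 and 4.10. Of 16 mitotic genes 6 rose, 2 fell and 8 did not pass, whereas 14 rose and 0 fell as deposited. The mitotic kinase Plk1 rose by 0.42, from 2.00, 2.05 and 1.98 to 2.41, 2.47 and 2.42, which left a difference of -0.87 from untreated cells, and Aurka rose by 0.30. Among 11 topoisomerase and repair genes 4 rose and 3 fell, not far from the shares of all genes, and 8 rose and 0 fell as deposited, with Top2a and Top2b, the enzymes that CX-5461 can trap, up by 0.25 and 0.33.

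**Figure D3:**
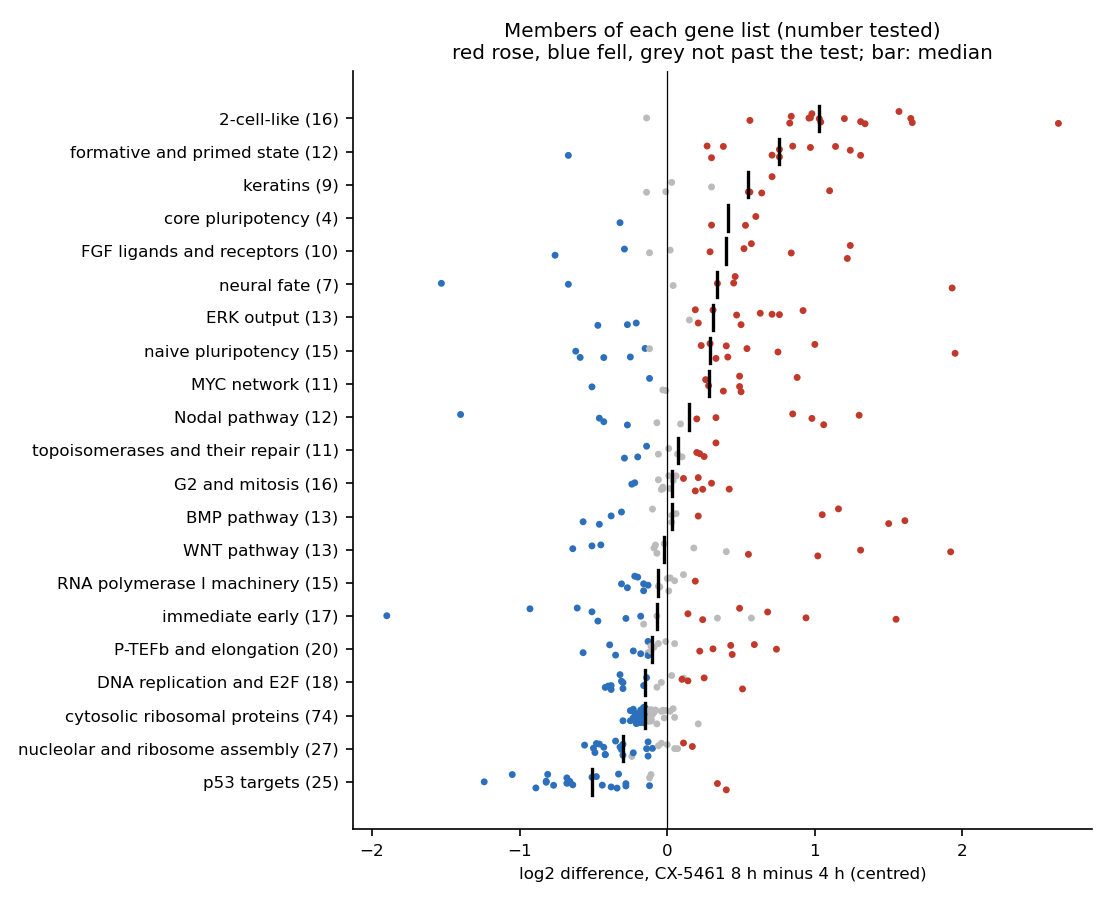
Log2 difference between CX-5461 8 h and 4 h (x axis, centred) of each tested member of 21 gene lists (rows, number tested in brackets), red for members that rose, blue for those that fell, grey for those not past the test; black bars are list medians. Medians run from 1.03 for 2-cell-like genes to -0.51 for p53 targets, and 14 of the 21 lists had more members higher than lower.

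The 10 genes with the largest rises, by a rule that asked for a mean log2 value of at least 0 and no overlap between times, were Tmem92, Gm12794, Edn1, Rasgrp1, Clvs2, Pla2g7, Plaur, Prdm14, Pax6 and Sp5, with rises of 2.44 to 1.92. Rasgrp1, an activator of RAS, was -2.04, -1.88 and -1.87 untreated, -4.30, -4.31 and -4.01 at 4 h and -2.08, -2.34 and -2.22 at 8 h, so it had dropped and came back (8 h against untreated -0.28, adjusted p = 0.056). Clvs2, Prdm14 and Pax6 had likewise dropped by 4 h.

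Tmem92, which encodes a small transmembrane protein (chr11:94777217-94782703, minus strand), instead stood at -4.99, -5.17 and -5.02 untreated and at -4.23, -4.25 and -4.58 at 4 h, and reached -2.13, -2.06 and -1.57 at 8 h (5.41-fold, on 43 to 63 and 295 to 367 reads). Plaur, the urokinase receptor, went from -1.38, -1.23 and -1.37 to 0.66, 0.66 and 0.62, above its untreated -0.80, -0.62 and -0.85. Gm12794, Edn1 (endothelin 1), Pla2g7 and Sp5 also ended 2.57, 1.41, 1.83 and 1.35 above untreated cells.

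The 10 largest falls were Rgcc, Pou4f3, Trp73, Scx, Art4, Fam196a, Myt1, Wnt9a, Scn4b and Lhx3. All 10 had been raised at 4 h, by 3.64 (Scx) to 5.96 (Art4), and 9 of them were still raised at 8 h. The rule used the same 4 h libraries and a mean over all libraries. It therefore favoured genes raised at 4 h, and the raised 4 h level is no separate result. The exception was Rgcc, a regulator of the cell cycle that p53 can induce (chr14:79288756-79301645, minus strand). It was -5.70, -5.33 and -5.29 untreated, -1.57, -1.69 and -1.89 at 4 h and -5.56, -5.70 and -5.42 at 8 h. The 8 h values overlapped the untreated ones, and the fall was 14.3-fold on 280 to 402 and 24 to 27 reads (log2 -3.84 ± 0.16, adjusted p = 5.2e-15; 8 h against untreated -0.12, adjusted p = 0.50).

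Trp73 encodes p73, a relative of p53. It was -1.53, -1.47 and -1.58 untreated, 2.76, 2.63 and 2.71 at 4 h and 0.49, 0.59 and 0.57 at 8 h, a 4.43-fold fall to a level still 2.08 above untreated cells. Pou4f3, Myt1 and Lhx3, transcription factors of sensory and neural cells, fell by 2.18, 2.10 and 2.00 and the WNT ligand Wnt9a by 2.08. The tendon factor Scx fell by 2.12 and the sodium channel subunit Scn4b by 2.03. Other than Trp73, each of the 10 genes had at most 61 reads per library in untreated cells. The directions of all 20 genes were the same as deposited.

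**Figure D4:**
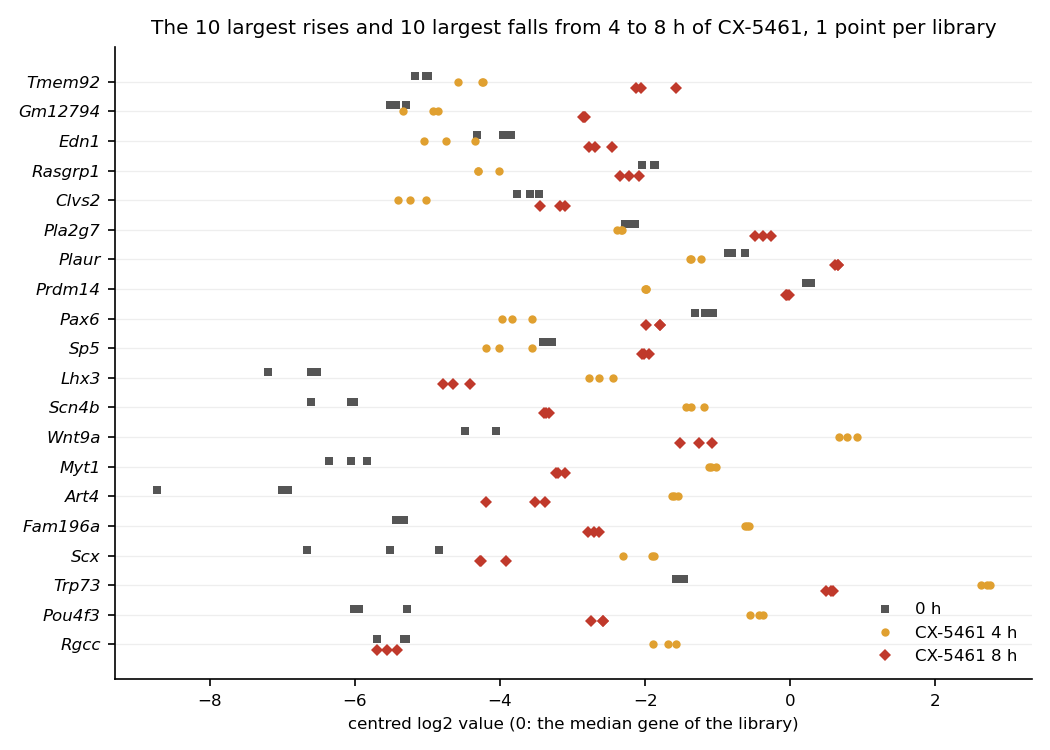
Centred log2 value (x axis) of the 10 genes with the largest rises and the 10 with the largest falls (rows) in untreated cells, 4 h and 8 h of CX-5461, 1 point per library. Points of 4 h and 8 h are apart in every row because the rule asked for it; the 8 h points of Rgcc lie on those of untreated cells, while those of the other 9 genes that fell lie between untreated and 4 h.

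Comparisons with untreated cells at 4 and 8 h share libraries with the interval itself, so the question of how far the interval ran against the earlier response was put to genes chosen in other libraries. Of the 2310 genes called higher after 2 h of CX-5461 against untreated cells (15.8% of genes tested; 33.6% were called either way), 1562 fell from 4 to 8 h (67.6%) and 150 rose (6.49%), beside 32.0% and 25.8% of all genes. Of the 2616 called lower at 2 h (17.8%), 1481 rose (56.6%) and 241 fell (9.21%). The median difference from 4 to 8 h was -0.35 in the former and 0.19 in the latter. These genes made up 33.3% of all that fell and 39.1% of all that rose in the interval.

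For genes chosen by BMH-21 the counts depended on the scale. On each scale given here, genes higher with BMH-21 fell more often than all genes, and genes lower with it rose more often. Of 4718 called higher after 4 h of BMH-21 (32.2%; 73.6% were called either way), 2478 fell (52.5%) and 465 rose (9.86%) from 4 to 8 h of CX-5461, and of 6081 called lower (41.5%), 2682 rose (44.1%) and 1058 fell (17.4%). As deposited, more of the 3234 genes called higher with BMH-21 rose (845, 26.1%) than fell (659, 20.4%), with a median difference of 0.06. Of the 6592 called lower 5202 rose (78.9%) and 26 fell (0.394%). The shares of all genes on that scale were 58.8% higher and 4.85% lower. With median-ratio factors 2604 of 5213 fell (50%) and 538 rose (10.3%), and 2640 of 5451 rose (48.4%) and 778 fell (14.3%). All genes there stood at 26.7% higher and 30.7% lower. For the genes chosen by CX-5461, as deposited, the count of genes lower at 2 h of CX-5461 and then higher was 2580 of 3003, and that of genes higher and then lower 493 of 1093. With median-ratio factors these counts were 1177 of 1841 and 1783 of 2801.

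The same interval of BMH-21 used another inhibitor of the same enzyme at the same dose, and its libraries are separate from those of CX-5461. In it 10334 genes changed (70.5%), 4151 higher (28.3%) and 6183 lower (42.2%). The test of the difference between the intervals, CX-5461 minus BMH-21, called 8824 genes (60.2%), 5310 with the CX-5461 change the higher (36.2%) and 3514 the lower (24.0%). That split depended on the scale, with 9003 and 1170 as deposited and 3884 and 4593 with median-ratio factors. These counts over all genes tested are the background for the list counts between the inhibitors below, each on its own scale.

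Pluripotency genes differed between the inhibitors. Nanog was 2.84, 2.95 and 3.03 after 4 h of BMH-21 and 2.69, 2.73 and 2.49 after 8 h, so it fell there (difference -0.31, adjusted p = 1.5e-05) while it rose with CX-5461, and the difference between the intervals was 0.91 ± 0.07 (adjusted p = 3.9e-10). Sox2 rose with both, from 3.55, 3.57 and 3.62 to 4.01, 3.89 and 3.85 with BMH-21, and the changes differed by -0.03 ± 0.07 (adjusted p = 0.68), by 0.40 as deposited (adjusted p = 0.012) and by -0.21 with quantile normalization (adjusted p = 0.0097), so no direction holds for Sox2. Sall4, Prdm14 and Nr5a2 had differences of 0.61, 1.65 and 1.59. Of the 15 naive genes 13 had the higher change with CX-5461 and 2 the lower, and these counts were 13 and 0 as deposited and 11 and 2 with median-ratio factors. The formative list gave 9 and 2, with 10 and 0 as deposited and 9 and 2 with median-ratio factors. Lefty2 fell with BMH-21 (difference -0.26) and differed by 1.57 ± 0.12 between the inhibitors.

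For p53 targets the CX-5461 change was the lower in 21 of 25 and the higher in 1, with 4 and 3 as deposited and 21 and 0 with median-ratio factors. Mdm2 was 5.82, 5.79 and 5.75 after 4 h of BMH-21 and 5.51, 5.51 and 5.63 after 8 h, and its fall was larger with CX-5461 (difference between the intervals -0.81 ± 0.05, adjusted p = 2.9e-12; -0.38 as deposited, adjusted p = 0.017). Trp73 differed by -1.56 ± 0.07. For Cdkn1a the difference was -0.31 (adjusted p = 0.0001), and 0.13 as deposited (adjusted p = 0.43).

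2-cell-like genes rose with both inhibitors, 16 of 16 with BMH-21 and 15 of 16 with CX-5461. For 7 of them the rise was smaller with CX-5461, Zscan4f among them with a difference of -0.88 ± 0.14 (adjusted p = 7.4e-06), and for 9 the difference did not pass the test. The CX-5461 change was the lower in 5 as deposited and in 7 with median-ratio factors. Nucleolar and ribosome assembly genes fell less with CX-5461 on the centred scale. In 23 of 27 the CX-5461 change was the higher and in 1 the lower, with 26 and 0 as deposited, 18 and 2 with median-ratio factors and 19 and 3 with quantile normalization. Npm1 was 8.28, 8.28 and 8.35 after 4 h of BMH-21 and 7.43, 7.65 and 7.38 after 8 h, a fall that exceeded the one with CX-5461 by 0.39 (adjusted p = 0.00035), but with quantile normalization the difference was -0.14 (adjusted p = 0.20), so no direction holds for Npm1. Mitotic genes gave 14 and 0 of 16, against 16 and 0 as deposited, 11 and 1 with median-ratio factors and 9 and 1 with quantile normalization.

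**Figure D5:**
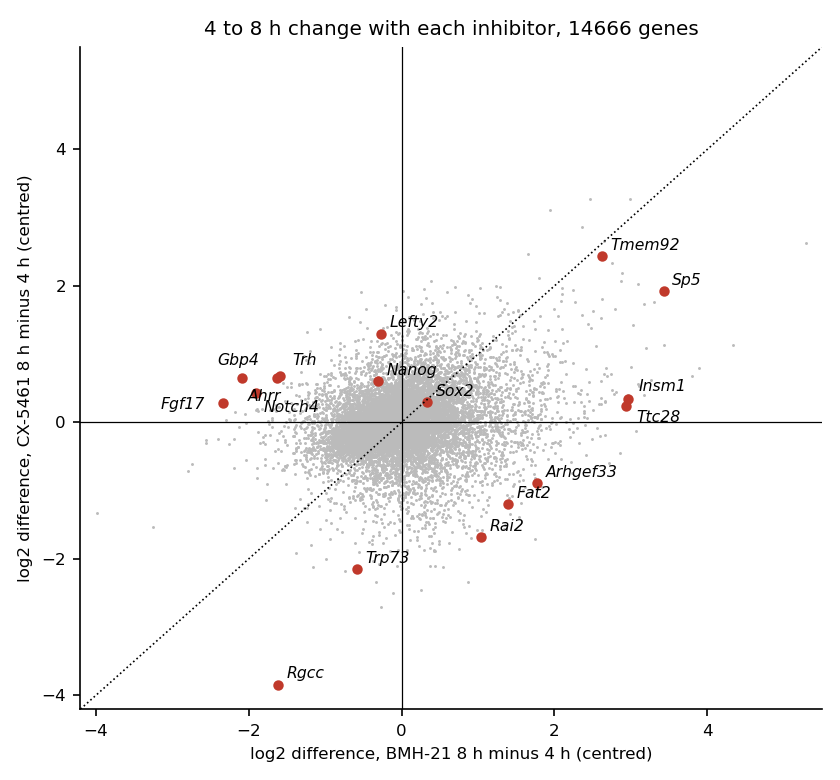
Log2 difference from 4 to 8 h (centred) with CX-5461 (y axis) against BMH-21 (x axis), 1 grey point for each of 14666 genes, genes named in the text in red; the dotted line marks equal change. Sox2 and Tmem92 lie near the line, while Nanog, Lefty2, Gbp4 and Fgf17 lie above it and Insm1, Ttc28 and Rai2 below.

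Markers of other cells that such a culture could hold were examined in the same libraries. The 8 embryonic stem cell markers were all detected, and their summed level was 5690 to 5740 reads per 1000000 in untreated cells, 3990 to 4100 at 4 h and 5140 to 5190 at 8 h, with 5 of 8 rising, 2 falling and Pou5f1 holding the most reads. Of 8 fibroblast markers, which would show feeder cells, 5 were below the filter, and the sum was 28.1 to 29.3, 34.3 to 38.8 and 39.5 to 41.2 reads per 1000000 at 0, 4 and 8 h, with 1 of 3 tested rising and 0 falling. Of 7 primitive endoderm markers 6 were tested, 2 rose and 1 fell, and their sum was 16.5 to 17.7, 21 to 22.4 and 19.9 to 21.8. None of these marker genes was at 0 reads in all libraries of a group.

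Trophoblast markers stood out from these. Of 7, 6 were tested, 5 rose and 0 fell, beside 25.8% and 32.0% of all genes. The sum was 72.4 to 76.1 reads per 1000000 untreated, 65.3 to 67.7 at 4 h and 133 to 151 at 8 h. With BMH-21 it was 69.8 to 72.9 at 4 h and 227 to 231 at 8 h, so the rise was not particular to CX-5461. The change was higher with CX-5461 for 1 of the 6 and lower for 3, with 1 and 1 as deposited and 1 and 4 with median-ratio factors. Most of these reads came from Tfap2c, a factor that embryonic stem cells also express, which went from 1.13, 1.20 and 1.11 to 2.21, 2.08 and 2.29. Cdx2 rose 3.52-fold on 13 to 36 and 63 to 108 reads, and Eomes, which is also a Nodal target, 2.92-fold on 96 to 150 and 390 to 401 reads. Of 9 keratins tested, of simple and stratified epithelia, 5 were higher and 0 lower (7 and 0 as deposited), and with BMH-21 5 were higher and 2 lower. Krt19, Krt8 and Krt18 are keratins of simple epithelia. Krt19 went from 0.06, -0.01 and 0.10 to 1.06, 1.11 and 1.28, and Krt8 and Krt18 rose by 0.71 and 0.64. Krt5, a keratin of stratified epithelium, was at -6.66, -6.61 and -5.69 untreated and had already reached -0.14, -0.48 and -0.14 at 4 h; its 8 h values of -0.11, 0.12 and 0.14 did not pass the test (0.30, adjusted p = 0.13), though its difference was called higher as deposited (0.67, adjusted p = 1.3e-05) and with quantile normalization (0.33, adjusted p = 0.032). Whether these markers came from a few other cells or from low levels in many was not tested.

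Gene length was examined as a property the comparison did not use. For 14145 of the 14666 genes (96.4%) with a span in GENCODE M21, the median difference of CX-5461 from 4 to 8 h was -0.05, -0.06, -0.03 and 0.00 in 4 groups of equal size from the shortest to the longest genes. With BMH-21 these medians were -0.16, -0.11, -0.07 and 0.02. The shortest and the longest genes thus differed little in the CX-5461 interval, and more in that of BMH-21.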

How the data were processed

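RNA-seq of poly(A) RNA was described in 21 libraries, 3 in each of 7 groups taken from the sample titles. The authors deposited 1 table of log2 values per gene symbol, whose name says voom; the submitters' processing notes name Trim Galore 0.5.0, TopHat2 2.1.1, R 4.0.5, DESeq2 1.30.1, edgeR 3.32.1, limma 3.46.0 and the build mm10, without role or order. The counter, annotation and filters are not given in the sources used here. The deposited log2 values equal reads plus 0.5 over an effective library size, and whole reads were recovered to within 1.7e-08. Reads were used for depth, median-ratio factors and the alternatives that need them.

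Each library was centred on its median over 14666 genes with a log2 value above 0 in at least 3 libraries. A linear model with 1 mean per group over all 21 libraries was fitted in limma 3.58.1 (R 4.3.3), with eBayes and a mean-variance trend, two-sided tests, Benjamini-Hochberg adjustment over all genes tested and a threshold of 0.05. Prior degrees of freedom were 8.5 after centring and 111.5 as deposited, beside 14 from the replicates. The offset of 0.5 reads makes log2 differences of low genes too small. An exact permutation test of 3 against 3 libraries cannot go below p = 0.1 and was not used.

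The members, the gene lists and the tests were chosen with earlier results of these data known, so the lists are no independent support for a direction. Genes were named by a rule: list members, mainly those with the largest differences; the 10 largest rises and 10 largest falls with an adjusted p under 0.05, a mean log2 value of at least 0 and no overlap between 4 h and 8 h; the 5 largest differences between inhibitors in each direction under the same limits; and Nanog and Sox2. Alternatives were the deposited scale, median-ratio factors, quantile normalization, other filters, an offset of 5 reads, other variance models, voom weights, fits of the compared groups only, a replicate block and leaving out each library. Promoter windows matched 223 of 320 listed genes. Figures were drawn with matplotlib 3.10.9.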

Additional observations from a re-analysis of the deposited data

Results flagged for a closer look

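The 4 to 8 h change differed between CX-5461 and BMH-21, by the test of the difference itself, for 8824 genes (60.2%). The first 10 genes below are those with the largest differences (log2 change with CX-5461 minus that with BMH-21), and no explanation was tested for any of them.

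In 5 genes the change was higher with CX-5461. Gbp4, an interferon-inducible GTPase, differed by 2.74 ± 0.12 (SE, limma adjusted p = 2.6e-14). It rose by 0.65 with CX-5461, from -2.48, -2.50 and -2.53 to -1.78, -1.97 and -1.80, and went from -2.35, -2.51 and -2.64 to -4.53, -4.55 and -4.68 with BMH-21. Fgf17, an FGF ligand, differed by 2.62 ± 0.11, with -0.70, -0.76 and -0.46 at 4 h and -3.04, -3.06 and -2.83 at 8 h of BMH-21 against -0.70, -0.61 and -0.73 at 8 h of CX-5461. The receptor Notch4 differed by 2.34, Ahrr, a repressor of the aryl hydrocarbon receptor, by 2.29, and Trh, the thyrotropin-releasing hormone precursor, by 2.28. All 5 rose with CX-5461 and fell with BMH-21. Ahrr had 21 to 26 reads at 4 h and 38 to 47 at 8 h of CX-5461, and its CX-5461 change was -0.37 when log2 values below 0 were set to 0.

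In the other 5 the change was lower with CX-5461. Rai2 differed by -2.72 ± 0.26, falling by 1.68 with CX-5461 and rising by 1.04 with BMH-21. Arhgef33 differed by -2.66, and Fat2, an atypical cadherin, by -2.59, and both also fell with CX-5461 and rose with BMH-21. Ttc28 differed by -2.69 ± 0.15; it rose by 2.94 with BMH-21, while its CX-5461 change of 0.24 did not pass the test (adjusted p = 0.055). Insm1, a zinc-finger factor of neuroendocrine cells, differed by -2.62, rising by 2.96 with BMH-21 and by 0.34 with CX-5461. Of the 10 genes all kept their direction as deposited and with median-ratio factors.

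Nanog differed by 0.91, 1.34 as deposited and 0.79 with median-ratio factors, rising in the CX-5461 interval and falling in that of BMH-21. Apart from Sox2, the changes of the other genes compared between the inhibitors also differed by this test: by 0.61 for Sall4, 1.65 for Prdm14, 1.59 for Nr5a2, 1.57 for Lefty2, -0.81 for Mdm2, -1.56 for Trp73, -0.88 for Zscan4f, -0.31 for Cdkn1a (0.13 as deposited) and 0.39 for Npm1 (-0.14 with quantile normalization).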

How the results depend on the processing

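The scale was the choice that changed the results. As deposited, the interval gave 8626 genes higher and 712 lower, the difference between inhibitors 9003 higher, the genes followed from 2 h of CX-5461 2580 (lower, then higher) and 493 (higher, then lower), and those followed from 4 h of BMH-21 5202 and 659. The other 209 summary values stayed within 1.5 times of the reported ones. Leaving out 1 library gave 7662 to 7870 genes called in the interval, 3433 to 3519 higher and 4223 to 4351 lower, and 8312 to 9220 for the difference between inhibitors. The 51 of 756 list counts that moved included 27 as deposited; without replicate 1 of 4 h or replicate 3 of 8 h, 1 MYC network gene fell instead of 2, and without replicate 1 of 4 h or replicate 2 of 8 h, 1 nucleolar gene rose instead of 2.

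Over the genes named in the text, some directions turned as deposited: Pou5f1 (0.05), Polr1a (0.06), Rrn3 (0.10), Ttf1 (0.15), Rpl15 (0.07), Rpl27 (0.12), Rpl10 (0.12), Sprtn (0.08), Bax (0.26), Bmpr2 (0.06), Dusp6 (0.17), Dux (0.24), Etv4 (0.10), Fgfr1 (0.09), Myc (0.25), Nr0b1 (0.13) and Rrm2b (0.25), and between inhibitors Sox2 (0.40) and Cdkn1a (0.13). Others turned with quantile normalization (Bax 0.03, Npm1 between inhibitors -0.14), with no filter (Fgf4 -0.03, Ubtf -0.04, Sox2 between inhibitors 0.03) or with log2 values below 0 set to 0 (Ahrr -0.37, Tdpoz3 -0.09). Sox2 between inhibitors turned without replicate 1 of 8 h of BMH-21 (-0.07 to 0.01 over the libraries left out) and Ubtf without replicate 3 of 8 h of CX-5461 (-0.01 to 0.02). Over all alternatives 32 further calls were lost and 17 gained. Lost ones include Insm1, without replicate 1 of 4 h (adjusted p = 0.084) or of 8 h (adjusted p = 0.12), and Ttf1, without replicate 1 of 4 h (adjusted p = 0.052). The cause of these changes was not tested, apart from the shift of 0.37 that centring removes.

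Same-numbered libraries of 4 h and 8 h of CX-5461 did not deviate together (correlations 0.01, -0.10 and -0.13), so the numbers were not taken as pairs. With the replicate block 8311 genes were called in the interval, 3723 higher and 4588 lower, and 8689 between inhibitors. Depth limits only genes with few reads, such as Tdpoz3 with 5 to 11 at 4 h.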
